A study of Mus musculus with 54 samples.

Results

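The peaks described here lie at genes for zinc finger proteins. They are the peaks whose summit fell inside, or within 1000 bp of, a GENCODE gene whose symbol starts with Zfp, Zscan, Zkscan, Zbtb or Znf, outside the KZFP gene clusters of Chr4, Chr2 and Chr12. On GRCm39, 529 genes carried these prefixes and 493 of them lay outside the clusters, of which 462 are protein-coding, 11 are lncRNA genes and 20 are pseudogenes. At 181 of these genes, 337 peaks were found among the 25012 peaks of 42 lists, which was 1.35% of the 24975 peaks on assembled chromosomes (exact 95% binomial interval 1.21% to 1.50%). The prefixes select on the name only, so a few proteins with other kinds of finger, such as the RNA-binding protein Zfp36, are among the genes.

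The data are ChIP-seq peak lists of KZFPs from the Chr4 cluster of BL6J mice. Each was expressed from a Sleeping Beauty vector with a C-terminal 3xHA tag in the mouse embryonal carcinoma line F9 and recovered with an antibody against HA. The coding sequences were codon-optimised and the cells were selected with puromycin, so every list describes an over-expressed, tagged protein. Each KZFP has 1 library and no replicate, and the libraries were made in 5 batches of 3, 3, 13, 20 and 3 KZFPs, each with its own mixed input. The 4 empty vector controls belonged to batches 1, 2 and 4, so 16 KZFPs were profiled in batches without a control of their own. All cells share the F9 background, the vector and the selection. The lists hold no read counts, and the intervals given here cover counting error only. The 42 KZFPs have 32 different fingerprint arrays, the ordered DNA-contacting residues of their fingers, and KZFPs with the same array are not independent.

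KZFPs pair a KRAB domain with an array of C2H2 zinc fingers. Each finger contacts a few bases of DNA, short linkers join the fingers, and the KRAB domain recruits the corepressor TRIM28 and with it enzymes that deposit H3K9 methylation. The best known targets of KZFPs are transposable elements. Many zinc finger genes encode their whole finger array in the last exon, so that this exon holds the same short sequence many times with small changes. Binding of KZFPs and H3K9 methylation over the last exons of zinc finger genes have been described in several mammalian cell types.

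The sequences most often found under summits in the last exons are shown first, because different KZFPs shared them. In each, the capitals mark the stretch between the outermost summits of the densest group, read in the direction of the gene. The first stretch, at chr6:48001763-48001870 on the minus strand, held the summits of 11 KZFPs in Zfp777. The other, at chr5:143240757-143240854 on the minus strand, held 6 summits in Zfp316.
Zfp777 last exon: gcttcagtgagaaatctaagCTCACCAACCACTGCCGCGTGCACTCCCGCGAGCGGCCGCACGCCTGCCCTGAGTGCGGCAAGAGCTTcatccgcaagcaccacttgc
Zfp316 last exon: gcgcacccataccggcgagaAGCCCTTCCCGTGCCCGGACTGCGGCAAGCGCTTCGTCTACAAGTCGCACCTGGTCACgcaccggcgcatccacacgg

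The peaks were very unevenly spread over the KZFPs. At least 1 peak at a zinc finger protein gene was present in 31 lists and none in 11. Zfp982 had 91 such peaks, Zfp_MB016 had 66 and Zfp_MB026 had 62, and these 3 lists held 65.0% of the peaks, beside 60.1% of all chromosome peaks. Another 10 KZFPs had 5 to 16 peaks, and 18 KZFPs had 1 to 4. As a share of its own list, Zfp980 had the highest value of the 13 KZFPs with at least 5 peaks, with 5 of 113 peaks (4.42%, 95% interval 1.45% to 10.0%). The lowest was that of Zfp_MB028, with 6 of 1423 (0.422%, 0.155% to 0.915%). Zfp982 had 1.92% (1.55% to 2.35%), Zfp_MB026 1.51% (1.16% to 1.93%) and Zfp_MB016 1.07% (0.828% to 1.36%). The intervals of Zfp982 and Zfp_MB016 did not overlap, while that of Zfp_MB026 overlapped with both. Zfp982 also had more of its list at other protein-coding genes, 3095 of 4745 peaks beside 2506 of 6170 for Zfp_MB016. The ratio of peaks per Mb at zinc finger protein genes to other genes was 1.83 (Zfp982), 2.03 (Zfp_MB026) and 1.64 (Zfp_MB016).

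**Figure D1:**
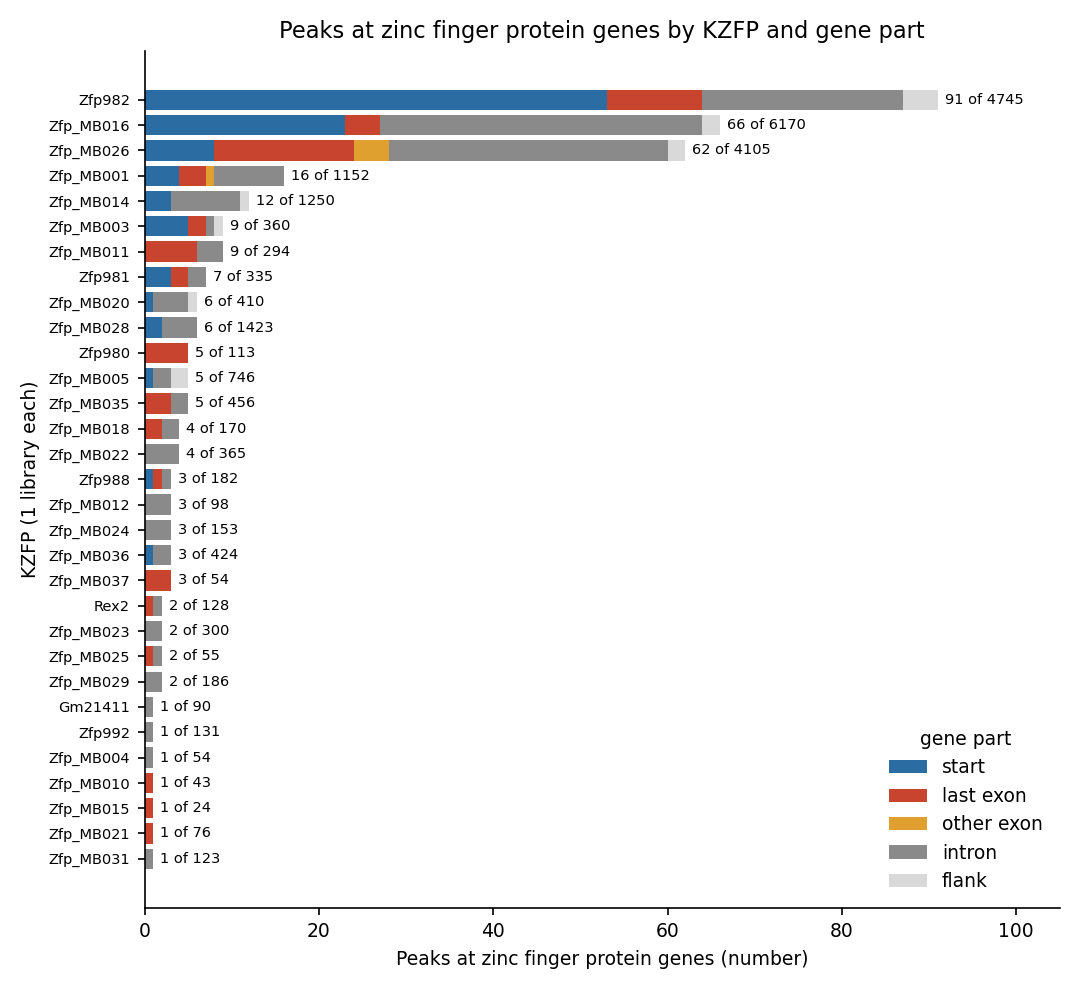
Number of peaks at zinc finger protein genes (x axis) in each of the 31 lists that had any (y axis), coloured by the gene part of the summit, with the number and the length of the list printed beside each bar. Zfp982, Zfp_MB016 and Zfp_MB026 hold most of the peaks, and the red last exon segments recur in short lists such as Zfp980 and Zfp_MB037.

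Density was compared first, to ask whether a list had more peaks per Mb at zinc finger protein genes than at other genes. The gene parts were not matched, so how much of a density difference follows from gene structure was not tested. The gene windows covered 17.4 Mb for zinc finger protein genes and 1080 Mb for the 21220 other protein-coding genes. Over the 42 KZFPs, the density was 0.0798 ± 0.0775 peaks per Mb for every 100 peaks of the list (SD, n = 42) at zinc finger protein genes and 0.0355 ± 0.0150 at other genes. The difference was 0.0443 (SE 0.0115), and the density was higher at zinc finger protein genes for 29 of 42 KZFPs (two-sided sign-flip permutation test over KZFPs, p = 0.00014). The difference had the same sign in batch 3 alone, at 0.0433 (higher for 10 of 13 KZFPs, permutation p = 0.0286), and in batch 4 alone, at 0.0516 (higher for 15 of 20, permutation p = 0.0012). Without the peaks at Zfp777 and Zfp316 it was 0.0205 (permutation p = 0.00482), and with only peaks of at least 15-fold enrichment it was 0.0329, which did not pass the test (permutation p = 0.0821, n = 40 lists).

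The gene part of the summit was taken from the canonical transcript of each gene, in the order start (within 1000 bp of the first base), last exon, other exon, intron and flank. Starts held 105 peaks at 92 genes from 12 KZFPs, last exons 63 peaks at 37 genes from 17 KZFPs, other exons 5 peaks, introns 151 peaks at 77 genes from 26 KZFPs, and flanks 13 peaks. Of the intron peaks, 36 lay inside the gene but outside its canonical transcript. Since introns are long, the order by density was different. Starts had 106 peaks per Mb over all lists, last exons 38.1, other exons 14.7 and introns 10.7. Among all 337 peaks, 29 summits were also within 1000 bp of another protein-coding gene, 13 of them at starts, and for these the gene could not be told apart from its neighbour.

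The share of peaks in last exons and introns differed from that at other genes. The lengths of the gene parts were measured for zinc finger protein genes only. How much of these differences follows from gene structure was therefore not tested. For the 13 KZFPs with at least 5 peaks at zinc finger protein genes, last exons held 26.2% ± 31.2 of these peaks (SD, n = 13 KZFPs) and 3.61% ± 1.88 of the peaks at other protein-coding genes. The difference was 22.6 percentage points (SE 8.28) and was positive for 9 of 13 KZFPs (two-sided sign-flip permutation test, Benjamini-Hochberg adjusted over 4 parts, adjusted p = 0.0146). Introns held 41.2% ± 21.3 against 59.7% ± 21.04, lower for 13 of 13 KZFPs, a difference of -18.5 points (SE 3.65, adjusted permutation p = 0.00128). Other exons held 0.977% against 3.18% (difference -2.21 points, SE 0.861, lower for 11 of 13, adjusted permutation p = 0.0353), and this call was lost with 1 value per array (-2.12 points, adjusted permutation p = 0.0509), in 9 of 13 fits that left out 1 KZFP and without Zfp777 and Zfp316 (-1.90 points, adjusted permutation p = 0.11). Starts held 24.95% ± 19.7 against 31.7% ± 21.8, and this difference of -6.79 points (SE 5.87) was not detectable (adjusted permutation p = 0.279). The last exon difference depended on few genes. Without the peaks at Zfp777 and Zfp316 it was 7.74 points over the 11 KZFPs left and did not pass the test (adjusted permutation p = 0.11), whereas the intron difference was -12.9 points (adjusted permutation p = 0.0201). Batches 3 and 4 alone have 5 and 6 KZFPs, and in neither did a part pass the test after adjustment (exact permutation, last exon difference 20.3 points, adjusted p = 0.312, and 20.9 points, adjusted p = 0.375).

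**Figure D2:**
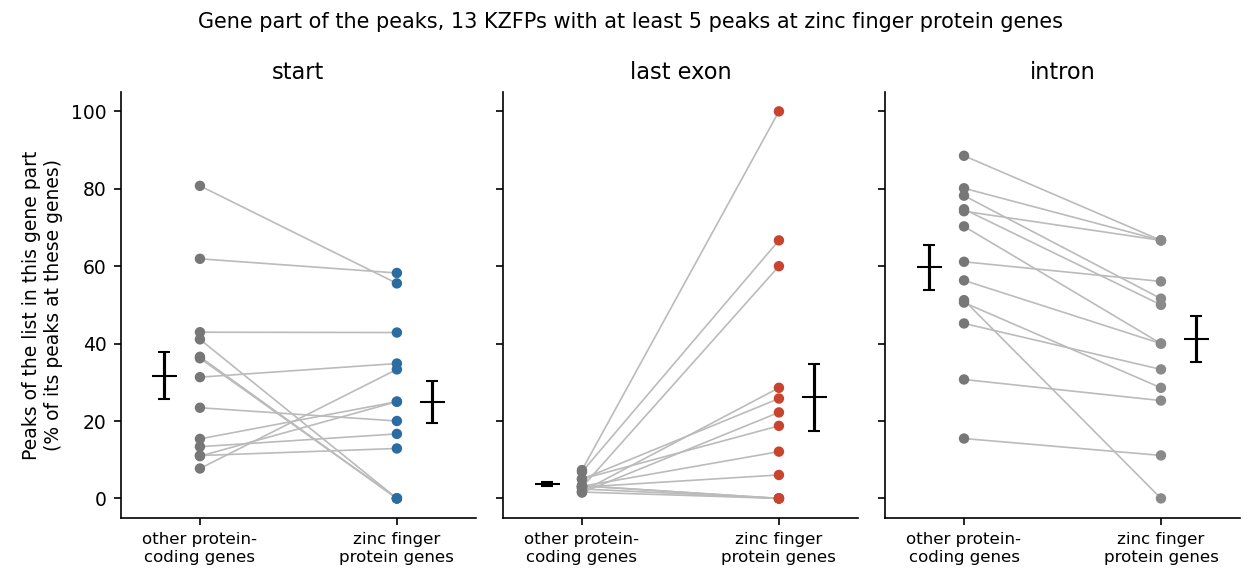
Percentage of a list's peaks that lie at the start, in the last exon or in an intron (y axis), at other protein-coding genes and at zinc finger protein genes, with 1 line per KZFP (13 KZFPs with at least 5 peaks) and the mean ± SE in black. Last exon shares run from 0% to 100% at zinc finger protein genes and reach at most 7.32% at other genes, and all 13 intron lines fall.

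Last exons were also denser than introns within the zinc finger protein genes themselves. Over the 42 KZFPs the density was 0.387 ± 0.783 (SD) peaks per Mb for every 100 peaks in last exons and 0.0410 ± 0.0478 in introns, a difference of 0.346 (SE 0.122, two-sided sign-flip permutation test, p = 0.00095). The sign was mixed: last exons were denser for 16 KZFPs and introns for 15. Without the peaks at Zfp777 and Zfp316 the difference was 0.0974 (permutation p = 0.0785). No difference in the strength of the peaks was detectable. Within its own list, a peak at a zinc finger protein gene had a mean percentile of fold enrichment of 51.9 ± 9.66 (SD, n = 13 KZFPs) and a peak at another gene 49.6 ± 2.06, with a difference of 2.28 (SE 2.74, permutation p = 0.419).

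Within last exons, the summits lay mostly in the part that encodes the fingers. Of 63 last exon summits, 30 were inside a C2H2 finger and 14 in a linker before a finger, so that 44 (69.8%, 95% interval 57.0% to 80.8%) lay in the finger array, which makes up 19.2% of the last exon bases. The 3′ UTRs held 11 summits and 63.4% of the bases, other coding sequence held 7 and the 5′ UTR part held 1. Per Mb this was 126 peaks in fingers and 178 in linkers, beside 27.4 in other coding sequence and 10.5 in 3′ UTRs. The 11 last exon summits in Zfp777 and the 10 in Zfp316 were each counted. The interval of all 63 summits and these densities therefore treat shared sites as separate. The densities were not computed without these genes. Without Zfp777 and Zfp316, 23 of 42 summits in 35 genes were in the finger array (54.8%, 38.7% to 70.2%). Zfp_MB026 had 14 of its 16 last exon summits there (87.5%, 61.7% to 98.4%), and the other KZFPs together had 30 of 47 (63.8%, 48.5% to 77.3%).

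**Figure D3:**
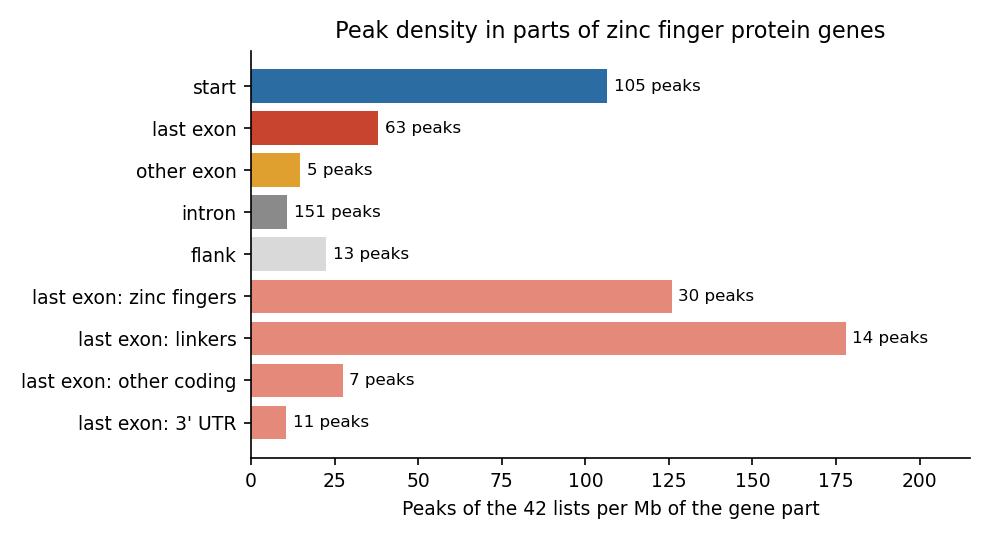
Peaks of the 42 lists per Mb (x axis) in each part of the zinc finger protein genes (y axis), with the number of peaks beside each bar and the last exon split below into fingers, linkers, other coding sequence and 3′ UTR. Fingers (126 per Mb) and linkers (178 per Mb) stand above other coding sequence and 3′ UTR, with every peak in Zfp777 and Zfp316 counted.

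Zfp777 (ENSMUSG00000071477.12, chr6:48001122-48025845, minus strand) was the gene with peaks of the most arrays. Rex2, Zfp980, Zfp981, Zfp982, Zfp_MB011, Zfp_MB015, Zfp_MB016, Zfp_MB018, Zfp_MB025, Zfp_MB035 and Zfp_MB037, with 11 different arrays and from 4 batches, each had 1 peak, and all were in the last exon. The 11 summits lay within 68 bp, at chr6:48001783-48001850, over fingers 6 and 7 of its 9 fingers and the linker between them. Fold enrichment over input was lowest for Zfp981 at 6.83, had a median of 12.97 and was highest for Zfp_MB037 at 21.4, where it was the strongest peak of the list (percentile 100). In other lists the same region was of middle rank, such as percentile 56.8 for Zfp_MB016 and 31.2 for Zfp982. The peaks were 407 to 1155 bp wide, so each covered several fingers and a summit marks only the point of highest signal. The remaining 31 lists had no peak in this exon.

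Zfp316 (ENSMUSG00000046658.18, chr5:143235452-143255777, minus strand) had 10 last exon peaks from 8 KZFPs with 7 arrays, and 1 further peak of Zfp982 at its start. Of the 10 summits, 6 lay in the 58 bp at chr5:143240777-143240834, from Zfp980, Zfp_MB011, Zfp982, Zfp981, Zfp_MB035 and Zfp_MB037, over finger 3 of its 14 fingers and the linker before it. Zfp_MB003 had a summit nearby, and Zfp_MB011, Zfp980 and Zfp_MB021 had summits in the later fingers. The folds ranged from 5.15 (Zfp_MB003) to 14.9 (Zfp_MB035) with a median of 9.62, and the peaks were up to 2700 bp wide, longer than the coding part of the exon. Of the 13 KZFPs with a last exon peak in either gene, 6 had peaks in both. Zfp_MB003 and Zfp_MB011 have the same array. None of the peaks in the last exons of Zfp777 and Zfp316 held the KZFP's own MEME motif where a motif was available to search.

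**Figure D4:**
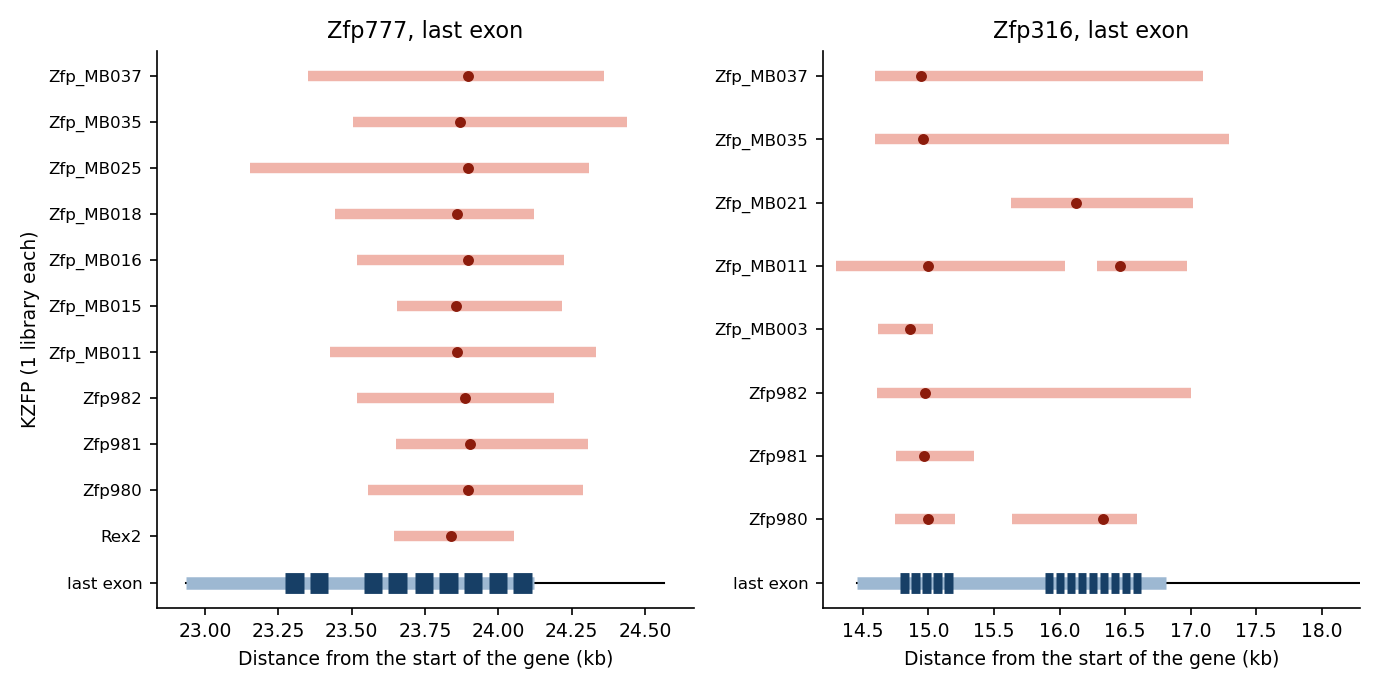
Peaks in the last exons of Zfp777 (left) and Zfp316 (right) by KZFP (y axis) along the distance from the start of the gene in kb (x axis), with peak extents as pale bars and summits as dots. The bottom row draws the last exon with its coding part in light blue and C2H2 fingers in dark blue. In Zfp777 the 11 summits align within 68 bp, and in Zfp316 they form a main group and a spread over the later fingers.

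Last exon peaks of several KZFPs were also found in Zfp13, Zfp787 and Zfp629. Zfp13 had last exon peaks of Zfp980 (5.55-fold), Zfp_MB011 (6.01-fold) and Zfp_MB026 (54.1-fold). Zfp787, chosen for mention after its values were seen, had Zfp980 (5.51-fold), Zfp_MB011 (7.63-fold) and Zfp_MB035 (12.3-fold) within 75 bp. Zfp980, Zfp_MB011, Zfp981 and Zfp_MB003 are 4 of the 10 lists that retained peaks under 10-fold enrichment, and these 10 lists gave 31 of the 337 peaks. These 4 lists are among the 13 KZFPs of the last exon comparison, which weights each KZFP equally. Their last exon differences were 92.7 (Zfp980), 59.8 (Zfp_MB011), 26.8 (Zfp981) and 20.7 points (Zfp_MB003), beside the mean of 22.6 points. Of the other KZFPs compared, 4 had a negative difference, and Zfp_MB035 had one of 57.1 points. Whether the lower cutoff played a part in the last exon peaks was not tested beyond the 15-fold setting, under which 153 peaks were left.

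The other last exon peaks with the highest folds belonged to Zfp982, Zfp_MB016, Zfp_MB026 and Zfp988. Zfp_MB026 had Zfp13 at 54.1, Zfp111 at 38.3, Zfp53 at 35.9 and Zfp697 at 25.8. Zfp982 had Zfp729a at 52.6 and Zfp964 at 20.8, and both were in the 3′ UTR. Zfp_MB016 had Zfp385a at 41.0, in coding sequence outside the fingers, and Zfp398 at 28.7, in the 3′ UTR. At the 3′ UTR of Zfp280b, Zfp988 (22.0-fold) and Zfp_MB001 (13.7-fold) had summits within 7 bp.

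Zfp_MB026 was the KZFP with the most last exon genes, 1 peak in each of 16. Adding the other exons, it had 18 summits in coding exons, and 12 of these were within 30 bases of the centre of a linker, here the 21 bases before a finger. The 8 strongest of the 12 are printed with the linker in capitals and 12 bases on each side, in the direction of the gene, since they show which linkers were under the summits. They are Zfp710 (54.3-fold, chr7:79736227-79736271, plus strand), Zfp13 (54.1-fold, chr17:23795757-23795801, minus), Zfp111 (38.3-fold, chr7:23898131-23898175, minus), Zfp53 (35.9-fold, chr17:21728701-21728745, plus), Zfp697 (25.8-fold, chr3:98335842-98335886, plus), Zfp629 (19.8-fold, chr7:127210926-127210970, minus), Zfp454 (19.4-fold, chr11:50764390-50764434, minus) and Zfp54 (16.4-fold, chr17:21654111-21654155, plus).
Zfp710 linker before finger 11: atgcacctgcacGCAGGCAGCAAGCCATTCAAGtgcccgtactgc
Zfp13 linker before finger 1: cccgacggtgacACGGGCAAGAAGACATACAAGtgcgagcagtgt
Zfp111 linker before finger 8: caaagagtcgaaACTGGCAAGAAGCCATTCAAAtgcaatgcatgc
Zfp53 linker before finger 2: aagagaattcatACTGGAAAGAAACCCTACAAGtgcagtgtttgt
Zfp697 linker before finger 11: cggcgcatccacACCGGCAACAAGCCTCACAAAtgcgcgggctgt
Zfp629 linker before finger 6: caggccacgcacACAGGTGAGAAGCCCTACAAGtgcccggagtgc
Zfp454 linker before finger 6: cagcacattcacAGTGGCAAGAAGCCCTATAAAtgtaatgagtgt
Zfp54 linker before finger 1: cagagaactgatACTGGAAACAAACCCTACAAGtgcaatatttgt

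The linkers next to Zfp_MB026 summits varied in sequence. The most frequent bases 4 to 9 of a linker were GGAGAG, in 26.4% of the 4357 linkers of these genes, and 1 of the 12 had them, that of Zfp94. The letters GGNAANAA, a pattern picked after the printed linkers had been seen, occurred in 8 of the 12 linkers next to a Zfp_MB026 summit and in 2.85% of all linkers on the coding strand, and the other 4 of the 12 lacked them. Among the other 14 KZFPs with coding exon summits, no linker within 30 bases of a summit held them. Rex2 and Zfp_MB001 had no linker that near. Several of the summits of the others lay at the same places in Zfp777 and Zfp316. Because the pattern was picked on the same linkers, these counts are a description.

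The RCADE motif of Zfp_MB026, which like the MEME motif was found by the study with the peaks of this list, has the letters TGGCAA. Searched on both strands within 101 bp windows at the summit, it was in 10 of 16 last exon windows of Zfp_MB026 and in none of the 47 last exon windows of other KZFPs. Of these 47 windows, 11 lay in Zfp777 and 10 in Zfp316, so they are not all separate sequences. At other protein-coding genes, 35.1% of the last exon windows of Zfp_MB026 held the motif, and 4.72% of the 21713 gene starts did in windows of the same length. In introns it was in 11 of 32 Zfp_MB026 windows at zinc finger protein genes, beside 36.3% at other genes. The letters TGGCAA occur in 2 of the 8 linkers printed above, those of Zfp111 and Zfp454, where they overlap the GGNAANAA pattern.

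Most start peaks at zinc finger protein genes came from Zfp982 and Zfp_MB016. At other protein-coding genes these 2 lists gave 1916 and 785 of 3812 start peaks. Zfp982 had 53 start peaks (58.2% of its peaks at zinc finger protein genes, beside 61.9% at other genes), Zfp_MB016 had 23 (34.8% beside 31.3%) and Zfp_MB026 had 8 (12.9% beside 11.1%). Together the first 2 gave 76 of the 105 start peaks. Summits were downstream of the start for 68 and upstream for 37, with 63 within 250 bp and a median position 122 bp downstream. The windows at starts had a median GC content of 68.2%, beside 62.2% for last exons and 50.7% for introns.

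The strongest start peak was that of Zfp_MB016 at Zfp790, 93 bp upstream of the start, with a fold of 156, which was also the highest fold of all 337 peaks. Zfp_MB016 also had Zfp263 (107-fold), Zbtb24 (68.1), Zfp644 (64.1), Zfp606 (56.4), Zfp386 (42.1) and Zbtb43 (40.6). Zbtb24 encodes a protein whose loss in humans causes a syndrome with low methylation of centromeric repeats. Zfp_MB026 had Zkscan8 at 109-fold, and Zfp982 had Zfp853 at 83.1 and Zfp644 at 47.4. At Zfp644 the peaks of Zfp982 and Zfp_MB016 overlapped, with summits within 248 bp. Both KZFPs had a peak at 19 genes of the 86 with a Zfp982 peak (and of the 56 with a Zfp_MB016 peak), Zfp606 and Zfp644 among them. The same overlap at other protein-coding genes was not counted, so 19 cannot be called many or few.

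None of the start windows held the MEME motif of the KZFP bound there, 0 of 103 for the 13 KZFPs, which allows a share of up to 2.91%. At the starts of other genes 4 of 3622 did (0.110%). Shorter letters within the MEME motif of Zfp_MB016, CCTAGG, chosen after the data had been seen and read the same on both strands, were in 6 of its 23 start windows of 101 bp (26.1%, beside 26.6% at other genes' starts). They were in 1 of the 82 start windows of other KZFPs and in 2.80% of all 21713 gene starts. In introns they were in 25 of 37 windows of Zfp_MB016 (67.6%, beside 60.1% at other genes). TGGCAA was in 3 of the 8 start windows of Zfp_MB026 (37.5%, beside 36.7% at other genes). The stretches below show these letters in capitals at starts, with 12 bases on each side. The Zfp_MB016 sites are chr16:3562208-3562237 (plus strand), chr5:106844233-106844262 (minus), chr12:116011563-116011592 (plus) and chr5:145168159-145168188 (plus). The Zfp_MB026 sites are chr7:42826704-42826733 and chr7:27560065-27560094 (both plus), where the first has the letters on the opposite strand.
Zfp_MB016 at Zfp263: ctggtgtcgggaCCTAGGctggtgtcgggg
Zfp_MB016 at Zfp644: ggggagctacgcCCTAGGctggctcccaac
Zfp_MB016 at Zfp386: tggtcggctcggCCTAGGgcggagttgggc
Zfp_MB016 at Zfp655: ggtcaggcacttCCTAGGagaaataaagcc
Zfp_MB026 at Zfp936: aataaaaacctcTTGCCAtgcagcgatcaa
Zfp_MB026 at Zfp607a: tcagggccaccaTGGCAAgaagtagtggat

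Intron peaks held most of the KZFP motifs and of the repeated sequence. To count copies, each 201 bp summit window was aligned to GRCm39, and a copy was another place with at least 100 bp at 80% identity. In introns, 59 of 151 windows had at least 10 copies (39.1%), beside 2 of 105 at starts (1.90%) and 6 of 63 in last exons (9.52%). The own MEME motif was in 21 of 126 intron windows of the 13 KZFPs, beside 20.5% at other genes' introns. Over all gene parts it was in 25 of their 299 windows (8.36%), beside 28.7% of all other windows of the same lists, which include peaks outside genes. The share was lower at zinc finger protein genes for 13 of 13 KZFPs. That count says little, because several KZFPs had too few windows to show a hit. Zfp_MB001, for example, had 0 of 16 beside 2.38% of its other windows. Zfp_MB016 had the motif in 12 of 66 windows (18.2%, beside 39.5%), Zfp982 in 7 of 91 (7.69%, beside 21.04%) and Zfp_MB026 in 2 of 62 (3.23%, beside 24.2%). With the RCADE motif of Zfp_MB026 the shares lay closer, 34 of the same 62 windows (54.8%) beside 56.9% of its other windows. Over all KZFPs with a motif, 27 of the 28 windows with the motif had at least 10 copies, and 42 of the 306 without it did.

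Sites that held the MEME motif are printed with the motif in capitals, 1 for each of the 13 KZFPs that had any, since they are the intron and 3′ UTR counterpart of the sequences at fingers and starts. They lie within Zfp385c, upstream of its canonical transcript, for Zfp_MB028 (13.02-fold, 2064 copies, chr11:100558415-100558475, minus strand), in an intron of Zfp277 for Zfp_MB016 (33.8-fold, 8018 copies, chr12:40452235-40452297, minus) and in the 3′ UTR of Zfp729a for Zfp982 (52.6-fold, 823 copies, chr13:67762446-67762474, minus). Further ones lie in an intron of Zfpm2 for Zfp_MB014 (41.6-fold, 12165 copies, chr15:40743263-40743327, plus) and again in that stretch of Zfp385c for Zfp_MB026 (32.3-fold, 1616 copies, chr11:100555195-100555259, minus). Zfpm2 encodes a cofactor of GATA factors. At the 21713 gene starts, these motifs were found in 201 bp windows at 4 starts for Zfp982 (0.0184%), at 1 for Zfp_MB028 (0.00461%) and at 0 for the others.
Zfp_MB028 in Zfp385c: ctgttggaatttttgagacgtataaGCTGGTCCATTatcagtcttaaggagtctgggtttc
Zfp_MB016 in Zfp277: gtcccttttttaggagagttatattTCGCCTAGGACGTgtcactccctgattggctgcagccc
Zfp982 in Zfp729a: gggtgctgcAGACCCTCTGGgcccctttg
Zfp_MB014 in Zfpm2: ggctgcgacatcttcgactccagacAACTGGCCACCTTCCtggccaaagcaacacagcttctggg
Zfp_MB026 in Zfp385c: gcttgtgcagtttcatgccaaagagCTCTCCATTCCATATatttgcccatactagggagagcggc

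**Figure D5:**
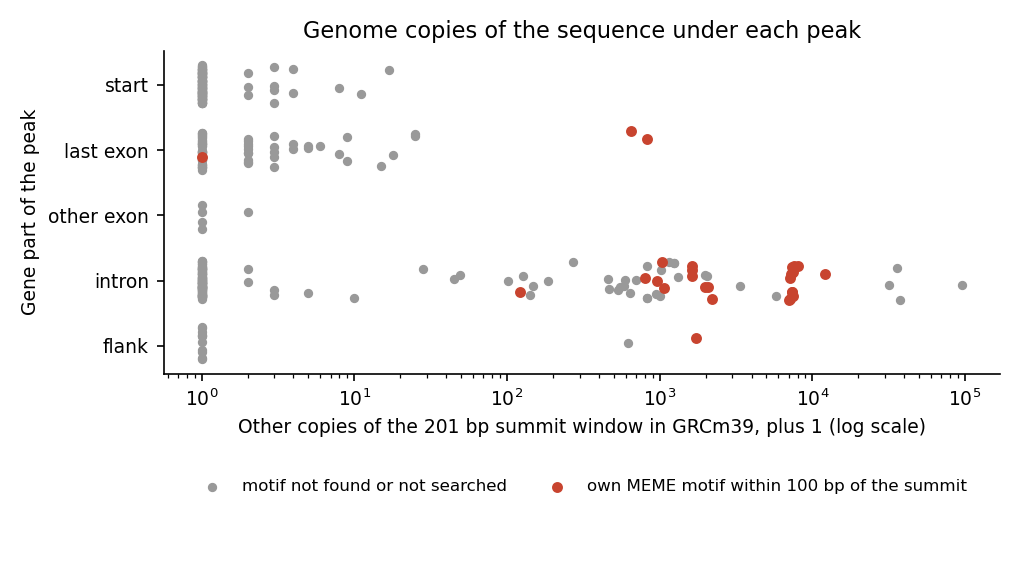
Number of other copies of each summit window in GRCm39 plus 1 (x axis, log scale) for the 337 peaks by gene part (y axis, points spread vertically within a part), with windows that held the KZFP's own MEME motif in red. Most red points lie in introns at over 100 copies, and start windows have at most 16.

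Several intron regions were shared by KZFPs. In Zbtb7a (ENSMUSG00000035011.17, chr10:80970299-80989180, plus strand), which encodes a BTB zinc finger repressor of blood cell development, Rex2, Zfp982, Zfp_MB003, Zfp_MB011, Zfp_MB018, Zfp_MB025 and Zfp_MB035 had summits within 40 bp at chr10:80973616-80973655, with folds from 5.10 to 20.98. These 7 KZFPs have 6 arrays and come from 4 batches, and the windows had no other copy in the genome and a median GC content of 69.2%. Of these 7, all but Zfp_MB003 had a peak in Zfp777 as well. In an intron of Zfp975, 6 KZFPs of batch 4 with 4 arrays had peaks in 1 region (folds from 10.6 to 30.8), in sequence with up to 1242 copies, and Zfp_MB024, Zfp_MB029 and Zfp_MB031 among them have the same array. In an intron of Zfp951, Zfp992, Zfp_MB012, Zfp_MB022 and Zfp_MB026 had summits within 115 bp (folds from 12.3 to 15.7), with up to 1154 copies. The authors retained 1 of several equal alignments at random, so peaks in such sequence can draw on reads from other copies.

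Over all gene parts, 34 of the 267 merged regions at zinc finger protein genes had peaks of at least 2 arrays (12.7%), and among all merged regions of the 42 lists the share was 10.4%. At least 3 arrays were present in 12 of the 267 regions (4.49%) and in 2.2% over the genome, and at least 5 in 3 regions (1.12%), those of Zfp777, Zfp316 and Zbtb7a, and in 0.313% over the genome. No test of these shares was run. For at least 2 arrays it was 7 of 37 regions in last exons, 12 of 91 at starts and 12 of 121 in introns. At 5 regions, KZFPs with the same array were both present, for example Gm21411 (19.5-fold) and Zfp_MB028 (77.5-fold) in an intron of Zfp462, with summits within 7 bp.

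By gene, 181 of 493 zinc finger protein genes had a peak (36.7%, 95% interval 32.4% to 41.1%), and 30.9% of the other protein-coding genes did. Their median lengths were 17.9 kb and 19.2 kb. By prefix, 153 of 416 Zfp genes had a peak (36.8%, 32.1% to 41.6%), 21 of 43 Zbtb genes (48.8%, 33.3% to 64.5%), 3 of 22 Zscan genes (13.6%, 2.91% to 34.9%), 3 of 11 Zkscan genes (27.3%, 6.02% to 61.0%) and the only Znf gene, Znfx1. The intervals of these groups all overlap, and those of Zscan and Zkscan are wide. By number of fingers, 47 of 112 genes with 1 to 5 fingers had a peak (41.96%, 32.7% to 51.7%), 47 of 135 with 6 to 10 (34.8%, 26.8% to 43.5%) and 74 of 192 with over 10 (38.5%, 31.6% to 45.8%), so no order by finger number was detectable. Last exon peaks were found in 10, 23 and 30 cases in these groups, and none in the genes without a recognised finger. Zfp777, with 9 fingers, gave 11 of the 23, and Zfp316, with 14 fingers, gave 10 of the 30. Most genes had little: 114 had 1 peak, 38 had 2 and 29 had at least 3.

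Zfp462, a gene with 33 fingers that acts in pluripotent cells, had 11 peaks of 8 KZFPs and 7 arrays, spread over its length of 139 kb, of which 8 were in introns and none in the last exon. Its strongest was that of Zfp_MB028 (77.5-fold, percentile 99.6 of its list). Zfp532 had 7 peaks of 7 KZFPs, 3 at the start and 4 in introns, the strongest at 40.1-fold. Zbtb46, which marks classical dendritic cells, had 7 peaks of 6 KZFPs, of which the strongest was Zfp_MB001 at 59.0-fold. Zfp423, a regulator of neural and fat cell precursors, had 5 intron peaks of 5 KZFPs, from 10.2-fold to 24.8-fold. Zfp277 had 5 peaks of 4 KZFPs, from 11.9-fold to 40.1-fold, of which 4 were in introns. Zfp467, chosen for mention after its values were seen, had the second highest fold of all peaks, at 141 for Zfp982, 1609 bp downstream of its start.

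Of 14 zinc finger protein genes listed beforehand, 5 had a peak (35.7%), near the 36.7% of all zinc finger protein genes and the 30.9% of other protein-coding genes. Zfp57 and Zfp445, which protect imprinted methylation, had intron peaks of Zfp982 (12.6-fold) and Zfp_MB016 (38.2-fold), and of Zfp_MB016 (29.2-fold). Zfp809, which silences retroviruses in embryonic stem cells, had a start peak of Zfp_MB003 at 6.28-fold. Zbtb7a is described above, and Znfx1, an antiviral RNA helicase, had a start peak of Zfp982 at 14.4-fold. No peak was listed at Zfp42, Zfp568, Zfp281, Zfp36, Zbtb17, Zscan4c, Zscan4d, Zscan4f or Zkscan1.

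Genes for the proteins that KZFPs work with were examined beside them. Of 25 such genes, 11 had a peak (44.0%), beside 30.9% of the other protein-coding genes. No interval or test of this share was computed. The 25 genes are 13.6 kb to 130 kb long. The middle one by length is Dnmt3b at 38.8 kb, beside a median of 19.2 kb for other protein-coding genes. The shares of genes with a peak were not matched for length. Trim28, which encodes the corepressor itself, had none. Setdb1, the H3K9 methyltransferase of the TRIM28 complex, had intron peaks of Zfp982 and Zfp_MB016, with a highest fold of 69.8. Hdac2 had start peaks of Zfp981, Zfp982 and Zfp_MB018, up to 11.1-fold. Cbx3, which encodes an HP1 protein, and Tasor, a subunit of the HUSH complex, each had 2 start peaks, and Trim24 had 4 intron peaks of Zfp_MB026 and Zfp_MB036. Zfp982 had a peak at 9 of the 11 genes. Counted by peaks rather than genes, it gave 3095 of the 11535 peaks at other protein-coding genes. A share of peaks is not comparable with a share of genes. How many other protein-coding genes with a peak had one of Zfp982 was not counted, so 9 of 11 cannot be called many or few.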

How the data were processed

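ChIP-seq of 42 HA-tagged KZFPs in F9 cells was analysed from the deposited peak lists, 1 per KZFP. The authors aligned reads to GRCm39 with BWA, retaining 1 of several equal alignments at random, called peaks per library with MACS2 against the input of the batch, and removed peaks that overlapped any empty vector peak. They then applied cutoffs on q and fold enrichment, with a lower fold for lists left short. The submitters' processing notes name BWA, SAMtools 1.19, deepTools 3.5.4 and MACS2 2.2.7.1. The deposited fold enrichment of a peak over the input is a linear ratio. The deposited -log10 p and -log10 q and the authors' display score entered no result. The lists hold no read numbers, so depth was not used, and folds are relative to the input of their own batch.

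Of 54 labelled samples, 12 (controls, inputs and mESC libraries) are not analysed here. The 37 peaks on scaffolds were left out. The clusters were Tnfrsf8 to Miip (chr4:145041735-147945231), Edn3 to Phactr3 (chr2:174625836-177760767) and Hpcal1 to Taf1b (chr12:17841965-24548357). Genes came from GENCODE M39 and sequence from GRCm39. A summit near several genes of a kind went first to a gene that held it, and among equals to the gene with the nearest start. C2H2 fingers were found in the translated canonical coding sequence by a pattern, and KRAB, SCAN and BTB classes were not assigned. Copies were counted with blastn 2.17.0. Differences over KZFPs were tested by two-sided sign-flip permutation, exact under 10 KZFPs and otherwise with 100000 resamples (numpy 2.4.6, scipy 1.17.1, Python 3.11.15), and the functions were tested on simulated lists. Without replicates, a test speaks of the spread between KZFPs. A planned count of repeat-masked bases was not run because the reference has 0 lower-case bases. Motifs came from the study's supplementary table and had been found on these peaks.

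The genes, KZFPs, lists and tests were chosen with earlier results of these data known. The genes named are the 10 with peaks of the most arrays, those of the 10 strongest last exon and 10 strongest start peaks, the 5 with the most peaks and 14 genes listed beforehand. Others are named with a sequence, with a region of at least 3 arrays or where so stated.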

Additional observations from a re-analysis of the deposited data

How the results depend on the processing

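Alternatives changed the threshold side of several results, and except where construction shows it the cause was not tested. With only peaks of at least 15-fold, 40 lists and 153 peaks at zinc finger protein genes were left. The density difference to other genes was then 0.0329 (permutation p = 0.0821) and that between last exons and introns 0.292 (permutation p = 0.11), neither past the threshold, 105 genes had a peak, and 7.19% of merged regions were shared. The values of other genes and of all regions at this cutoff are not given here. The 105 genes and the 7.19% therefore show no contrast with them. The gene part differences, over 5 KZFPs, were 5.47 points for starts and 1.06 for other exons, both of opposite sign to the value given, 7.17 for last exons and -17.2 for introns. With at least 10 peaks per KZFP (5 KZFPs) they were 5.08 (opposite sign) for starts, 8.68 for last exons, -0.363 for other exons and -15.1 for introns, and the rank difference was -0.472 (opposite sign). An exact test over 5 KZFPs cannot go below p = 0.0625. Batch 3 alone gave 20.3 points for last exons, -2.82 for other exons, -16.4 for introns and a last exon to intron density difference of 0.233, none past the threshold. Batch 4 alone gave 1.22 for starts (opposite sign), 20.9 for last exons, -1.50 for other exons and -22.8 for introns. With 1 value per array the other exon difference was -2.12 (adjusted permutation p = 0.0509). Without Zfp777 and Zfp316, a setting added after seeing the data, the differences were 0.906 for starts (opposite sign), 7.74 for last exons, -1.90 for other exons and 0.0974 for last exon against intron density, and the rank difference was -1.15 (opposite sign). Joining only summits within 100 bp gave 6.90% shared regions at zinc finger protein genes and 6.61% over the genome. The RCADE motif, also added later, was in 20.3% of 197 windows, beside 22.1% of all other windows of the same 7 lists. Leaving out each KZFP gave a density difference of 0.0382 to 0.0466, a last exon to intron difference of 0.273 to 0.360 and, for 13 KZFPs, -9.49 to -3.93 points for starts, 16.7 to 24.7 for last exons, -2.67 to -1.74 for other exons, -19.7 to -15.8 for introns and 0.915 to 3.31 for the rank. Only the other exon difference lost its call, in 9 of 13 cases (highest adjusted permutation p = 0.0692). Flanks of 0 and 5000 bp (299 and 395 peaks), all transcripts, coding genes alone, at least 3 peaks per KZFP and 1 motif mismatch kept direction and side. No paired analysis was possible because each KZFP has 1 library and the labels number only the empty vector controls as replicates.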
